A study of Mus musculus with 8 samples.

Results

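UDP-glucuronosyltransferases and cytosolic sulfotransferases attach glucuronic acid or sulfate to drugs, bilirubin, bile acids, steroids, thyroid hormones and phenols, which makes these molecules more soluble in water and easier to excrete in bile or urine. The genes examined were those of the Ugt1a, Ugt2a, Ugt2b, Ugt3a and Sult1 to Sult6 subfamilies, chosen by gene symbol with pseudogene symbols left out, together with Ugdh, Papss1 and Papss2, whose enzymes make the donor molecules. They number 44 of the 25239 genes in the deposited table, with 20 Ugt genes, 21 Sult genes and 3 donor genes. Enough reads were present to test 29 of the 44. The other 15 had at most 11 counts in any library, and 8 of them had 0 counts in all 8 libraries.

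The livers came from adult male mice. The knockout group (4 libraries, labelled KO, Zfp36l1 fl/fl Alb-Cre+) carried loxP-flanked Zfp36l1 alleles and a Cre recombinase driven by the promoter of the albumin gene, which is active in hepatocytes. The control group (4 libraries, labelled fl/fl, genotype WT) carried the flanked alleles without a named Cre, so the effects of Cre and of the deletion cannot be told apart. ZFP36L1 binds AU-rich elements of mRNAs and speeds their decay. Total counts were 120200618 to 140582588 in knockout libraries and 104842873 to 132017092 in control libraries. The detection floor of 3 counts equalled 0.0215 to 0.0277 CPM, the TMM-scaled count relative to library size, and covers counting error only. Zfp36l1 itself stood at 65.1 ± 8.97 CPM in knockout livers and 259 ± 47.9 CPM in control livers (SD, n = 4 each). Its exact two-sided permutation test gave p = 0.0286, the smallest value that 70 assignments allow. Whether every library stands for a separate animal is not stated, so a p-value here reflects library-to-library spread, which may be technical. Adjusted p-values come from the edgeR quasi-likelihood method (Benjamini-Hochberg, 14861 genes) where no other tool is given. Fold changes are on the log2 scale, knockout over control, with an approximate SE.

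Glucuronidation takes place in the endoplasmic reticulum, where UGT enzymes transfer glucuronic acid from UDP-glucuronic acid, a sugar nucleotide that UGDH makes from UDP-glucose in the cytosol. The Ugt1a genes share their downstream exons, and each has its own start and its own first exon, while each Ugt2b gene is a complete unit. Sulfonation takes place mainly in the cytosol, where SULT enzymes use PAPS, the activated sulfate that the PAPSS enzymes make. Hepatocytes are the main site of both reactions, and several of the genes respond to the receptors AHR, CAR and PXR and to the factor NRF2. In bulk liver RNA, fewer cells of a type and less RNA per cell cannot be told apart.

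Of the 29 tested genes, 4 were higher and 1 was lower in knockout livers at adjusted p under 0.05. These are 17.2% of the tested genes, against 5.39% of all 14861 genes. By direction, 13.8% were higher, against 3.51% of all genes, and 3.45% were lower, against 1.88% of all genes. Knockout and control libraries were fully separated for 6 genes (20.7%), against 15.1% of all genes. The median log2 fold change of the 29 was 0.10, with 18 above 0, and that of all tested genes was −0.01. Scaled by total counts alone, 392 of all genes were higher and 1338 lower, against 521 and 280 with TMM. The 5 changed genes were the phenol sulfotransferase gene Sult1a1, the glucuronosyltransferase genes Ugt1a5, Ugt2b34 and Ugt2b5, all higher, and the sulfotransferase gene Sult1b1, lower. The calls of Sult1a1 and Ugt2b34 held in each of the 8 fits that left out 1 library, while those of Ugt1a5, Ugt2b5 and Sult1b1 were lost in 7, 5 and 5 of these fits.

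The stretches around the starts of these 5 genes are shown because each gene has its own start, including Ugt1a5 within its shared locus, with those of Ugt1a1, from the same locus as Ugt1a5, and Ugt2b1, the neighbour of Ugt2b34, which did not pass the test. Each line holds 250 bases before and 50 after a RefSeq start on GRCm38.p6, 5′ to 3′ on the gene's strand. Capitals mark matches to GCGTG (the core bound by AHR), AGGTCA (an element bound by nuclear receptors) and TGACNNNGC (part of the antioxidant element bound by NRF2), each searched on both strands, and to TATAAA on the gene's strand.
Sult1a1 (chr7:126676369-126676668, minus strand): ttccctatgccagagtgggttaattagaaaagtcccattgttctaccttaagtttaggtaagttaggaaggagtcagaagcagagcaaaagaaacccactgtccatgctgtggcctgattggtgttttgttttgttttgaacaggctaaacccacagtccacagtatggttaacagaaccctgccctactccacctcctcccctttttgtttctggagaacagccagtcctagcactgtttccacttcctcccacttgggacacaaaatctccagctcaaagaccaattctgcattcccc
Ugt1a5 (chr1:88165762-88166061, plus strand): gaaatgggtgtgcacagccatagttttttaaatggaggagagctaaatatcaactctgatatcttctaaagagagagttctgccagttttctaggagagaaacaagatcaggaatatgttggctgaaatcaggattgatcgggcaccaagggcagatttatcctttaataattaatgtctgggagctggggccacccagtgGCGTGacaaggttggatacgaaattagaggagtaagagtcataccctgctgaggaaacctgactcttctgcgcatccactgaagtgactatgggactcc
Ugt1a1 (chr1:88211709-88212008, plus strand): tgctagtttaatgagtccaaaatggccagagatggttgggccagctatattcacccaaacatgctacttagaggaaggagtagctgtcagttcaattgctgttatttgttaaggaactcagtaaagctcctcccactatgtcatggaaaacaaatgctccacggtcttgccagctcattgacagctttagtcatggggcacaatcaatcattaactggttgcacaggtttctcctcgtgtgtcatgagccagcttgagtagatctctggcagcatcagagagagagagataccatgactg
Ugt2b34 (chr5:86906888-86907187, minus strand): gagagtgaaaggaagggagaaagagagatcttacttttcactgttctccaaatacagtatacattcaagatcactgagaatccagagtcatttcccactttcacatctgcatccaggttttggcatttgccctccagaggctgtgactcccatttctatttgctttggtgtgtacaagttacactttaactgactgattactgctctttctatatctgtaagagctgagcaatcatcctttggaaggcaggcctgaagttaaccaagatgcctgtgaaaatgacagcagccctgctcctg
Ugt2b1 (chr5:86926454-86926753, minus strand): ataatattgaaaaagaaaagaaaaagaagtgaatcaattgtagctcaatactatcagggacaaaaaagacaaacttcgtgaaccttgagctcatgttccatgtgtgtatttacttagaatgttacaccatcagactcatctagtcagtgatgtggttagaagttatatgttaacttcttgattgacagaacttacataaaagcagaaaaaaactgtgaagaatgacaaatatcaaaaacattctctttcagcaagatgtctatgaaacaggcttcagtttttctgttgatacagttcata
Ugt2b5 (chr5:87140291-87140590, minus strand): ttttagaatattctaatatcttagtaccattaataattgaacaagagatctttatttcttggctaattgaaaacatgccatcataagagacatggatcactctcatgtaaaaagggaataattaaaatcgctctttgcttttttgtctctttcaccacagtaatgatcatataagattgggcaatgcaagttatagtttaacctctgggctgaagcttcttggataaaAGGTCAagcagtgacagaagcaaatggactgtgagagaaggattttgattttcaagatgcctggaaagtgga
Sult1b1, upstream of its 2 listed starts (chr5:87538146-87538445, minus strand): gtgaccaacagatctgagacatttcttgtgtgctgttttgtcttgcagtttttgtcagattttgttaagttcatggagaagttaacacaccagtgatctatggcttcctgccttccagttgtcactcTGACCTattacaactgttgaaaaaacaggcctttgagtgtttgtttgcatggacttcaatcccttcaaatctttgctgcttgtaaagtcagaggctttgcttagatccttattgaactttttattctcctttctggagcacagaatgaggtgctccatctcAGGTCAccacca

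Windows were found for 38 of the 44 genes, 43 windows in all. AGGTCA occurred in 11 of the 43 windows (25.6%), against 16.3% of all 32851 windows, with matches in Ugt2b5 and Sult1b1. GCGTG was found in 8 windows (18.6%), against 32.4% of all windows, with matches in Ugt1a5 and at the downstream start of Sult1b1, and TGACNNNGC in 1 (2.3%), against 12.4%. TATAAA was found in 7 (16.3%), against 8.3%. The windows of Sult1a1, Ugt1a1, Ugt2b34 and Ugt2b1 held none of these letters, which says nothing about the factors. These matches are descriptions of the sequence and were not tested against the fold changes.

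Per kilobase of the deposited gene length, the most abundant gene was Ugt2b5, at 640 ± 41.2 CPM per kb in knockout livers and 475 ± 37.1 in control livers (SD, n = 4 each). Sult2a8, which encodes a bile acid sulfotransferase in mice, followed at 315 ± 35.8 in knockout livers and 342 ± 19.8 in control livers. Ugt2b36 and Ugt2b1 lay close behind it, at 289 ± 26.3 and 263 ± 21.2 CPM per kb in knockout livers and at 319 ± 19.1 and 308 ± 12.6 in control livers. Ugt2b34 reached 299 ± 15.9 CPM per kb in knockout livers, and 211 ± 18.1 in control livers. In knockout livers it lay among these 3 genes, where neighbours in the order differed by less than the larger SD of the pair. In control livers it lay below all of them. Levels then spanned several orders of magnitude, down to Ugt1a2, Ugt1a7c and Sult4a1, with means under 0.11 CPM per kb in both groups. This measure may place Ugt1a genes too low, because their deposited lengths exceed the exon bases that are theirs alone. Ugt1a1 had 87.9 ± 10.6 CPM per kb of deposited length in knockout livers and 83.3 ± 14.1 in control livers. Per kb of its own exon bases it had 311 ± 37.6 and 294.6 ± 49.98. This divisor is not the deposited length used for the other genes here, so these values are not ranked beside theirs. They may lie too high, because reads from shared exons may have been credited to Ugt1a1.

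**Figure D1:**
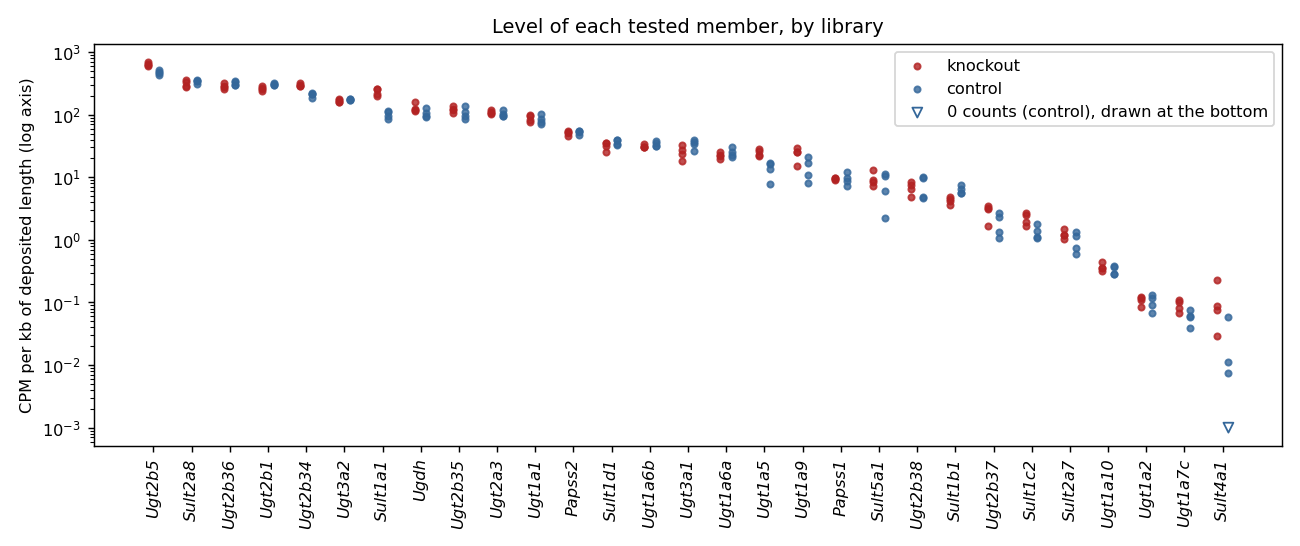
Level of each of the 29 tested genes in CPM per kb of deposited length (log axis), with 1 point per library, knockout left of control. An open triangle marks the control library of Sult4a1 at 0. Deposited lengths of Ugt1a genes exceed the exon bases that are theirs alone, so their points may lie too low beside other genes. Ugt2b5 is highest in both groups, and the knockout points of Sult1a1 (251 to 332 CPM before division by length) lie above all control points (110.4 to 148 CPM).

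The sulfotransferase Sult1a1 showed the largest change among the called genes. SULT1A1 sulfonates small phenols, including drugs and phenolic steroids. Sult1a1 (ENSMUSG00000030711.16, mm10 chr7:126672865-126676432, minus strand) had 251, 269, 324 and 332 CPM in knockout libraries 1 to 4, against 148, 121, 140.1 and 110.4 CPM in control libraries 1 to 4. Every knockout library lay above every control library. The means were 294 ± 40.0 CPM in knockout livers and 129.8 ± 17.2 CPM in control livers, so that the knockout mean was 226% of the control mean, with a log2 fold change of 1.18 (SE 0.12, adjusted p = 0.00209). Its exons overlap those of Sgf29, read from the other strand, by 61 bases, and reads there cannot be told apart because no strand setting is stated. Sgf29, which encodes a chromatin reader subunit, had 8.63 ± 0.959 CPM in knockout livers and 8.76 ± 0.636 CPM in control livers (adjusted p = 0.924), far below Sult1a1.

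The part of all Sult counts that Sult1a1 took, a measure that does not depend on scaling between libraries, was larger in every knockout library. It took 26.02%, 26.1%, 27.5% and 26.6% of Sult counts in knockout libraries, against 14.1%, 11.6%, 13.8% and 11.7% in control libraries. Sult2a8 took 64.0 ± 0.864% in knockout livers and 75.7 ± 2.07% in control livers. Its own level did not pass the test, with 630.0, 651, 749 and 799 CPM in knockout libraries, against 772, 814, 775 and 707 CPM in control libraries (log2 fold change −0.12, 95% interval −0.33 to 0.09, adjusted p = 0.51). The groups overlapped for Sult2a8 and did not overlap for either share.

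Sult1b1 was the member that fell. SULT1B1 acts on thyroid hormones and small phenols. Sult1b1 (ENSMUSG00000029269.11, mm10 chr5:87513339-87538195, minus strand) had 10.01, 11.4, 12.1 and 13.3 CPM in knockout libraries, against 20.5, 15.3, 15.5 and 17.8 CPM in control libraries. The groups did not overlap. Its log2 fold change came to −0.56 (SE 0.12, adjusted p = 0.0288). Leaving out 1 library gave adjusted p-values from 0.0314 to 0.0826. The call was lost without knockout library 1 (0.0826), 2 (0.0706) or 3 (0.075) and without control library 1 (0.0757) or 4 (0.0589). The next gene on the chromosome, Sult1d1, whose enzyme acts on catecholamines, had 76.6 ± 11.6 CPM in knockout livers and 86.9 ± 9.15 CPM in control livers (−0.18, adjusted p = 0.417). The count of Sult1b1 per count of Sult1d1 was 0.167, 0.135, 0.158 and 0.156 in knockout libraries, against 0.219, 0.190, 0.200 and 0.186 in control libraries, again without overlap.

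Other sulfotransferase genes did not pass the test. Sult1c2 had 2.44, 3.61, 3.92 and 2.82 CPM in knockout libraries, against 2.06, 1.57, 2.63 and 1.63 CPM in control libraries, and the groups overlapped (0.70, adjusted p = 0.0941, or 0.0175 with DESeq2). Sult4a1, a sulfotransferase-like gene known mainly from the brain, had 28, 22, 10 and 76 counts in knockout libraries, against 2, 0, 4 and 18 counts in control libraries. The groups overlapped, its fitted log2 fold change of 2.42 rests on few counts with 1 control library at 0, and its adjusted p was 0.164, or 0.0417 with the replicate number as a block. Sult5a1 and Sult2a7 had log2 fold changes of 0.34 and 0.37 (adjusted p = 0.717 and 0.462). The genes of subfamilies 2, 3 and 6 that were not tested had at most 10 counts in any library. They include Sult2a1 and Sult3a1, which in mice are expressed mainly in female liver. Sult2a1 had 0 counts in all 8 libraries, and Sult3a1 had 8, 0, 10 and 2 counts in knockout libraries, against 4, 2, 0 and 0 counts in control libraries. The estrogen sulfotransferase gene Sult1e1 had at most 11 counts in knockout and 10 in control libraries.

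**Figure D2:**
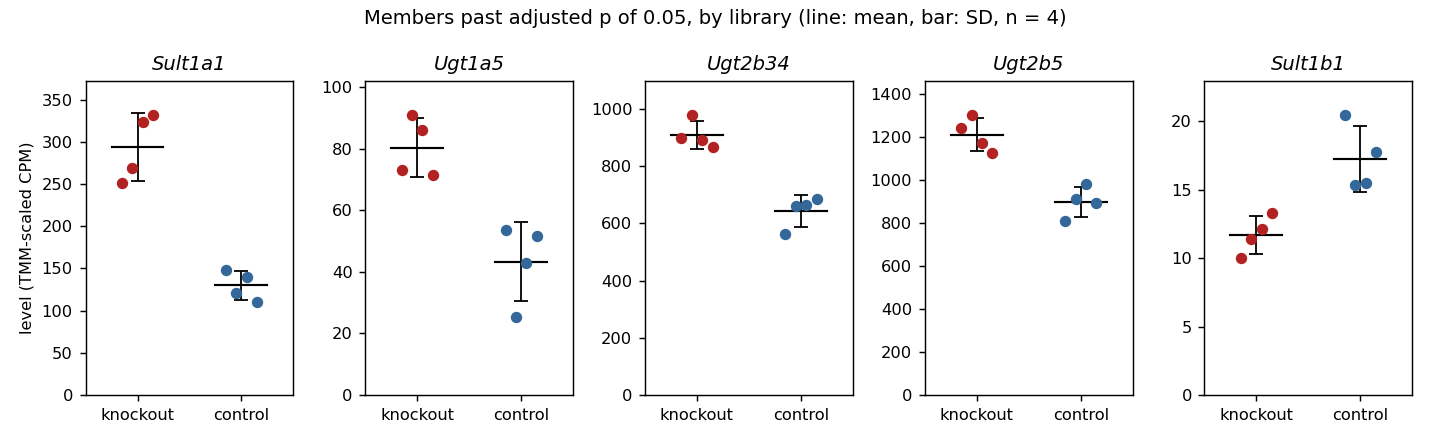
Level in CPM of the 5 genes past adjusted p of 0.05, with 1 point per library, a line at the mean and a bar of 1 SD (n = 4 per group), knockout left of control. In each panel the groups do not overlap, from Sult1a1 at 294 ± 40.0 and 129.8 ± 17.2 CPM to Sult1b1 at 11.7 ± 1.37 and 17.3 ± 2.42 CPM.

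The Ugt1a locus on chromosome 1 gave counts for 8 genes. They share 1311 or more annotated exon bases, and between 879 and 2142 bases of each belong to no other gene of the table. Ugt1a2 had only 36 to 55 counts in knockout and 24 to 53 in control libraries, while Ugt1a1 had 32977 to 42768 and 26391 to 46037, so reads from shared exons were not credited to every gene of the locus. How they were handled is not given in the sources used here. Only 20.2% to 47.9% of the 50-base stretches of these transcripts occur in no other gene, so that counts of single genes of this locus are uncertain. Levels of different genes of the locus are compared per kb of exon bases of the gene's own, and CPM values are used only between libraries of 1 gene.

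Ugt1a1, the bilirubin glucuronosyltransferase gene, led the locus with 311 ± 37.6 CPM per kb of its own exons in knockout livers and 294.6 ± 49.98 in control livers. It had 262, 317, 309 and 247 CPM in knockout libraries, against 244, 277, 330 and 226 CPM in control libraries, and the groups overlapped (0.08, 95% interval −0.21 to 0.37, adjusted p = 0.768). Ugt1a6a and Ugt1a6b, whose enzymes act on small planar phenols, had log2 fold changes of −0.13 and −0.12 (adjusted p = 0.556 and 0.435). Per kb of their own exons Ugt1a6a had 34.9 ± 3.80 CPM in knockout livers and 38.3 ± 6.06 in control livers, and Ugt1a6b had 76.5 ± 3.73 in knockout livers and 83.2 ± 8.83 in control livers. Copies as close as this pair can exchange reads: 20.2% of the 50-base stretches of Ugt1a6b are its own.

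Ugt1a5 was the Ugt1a gene past the threshold. Ugt1a5 (ENSMUSG00000089943.1, mm10 chr1:88166012-88218997, plus strand) had 73.0, 91.1, 86.0 and 71.5 CPM in knockout libraries, against 53.5, 25.4, 43.0 and 51.5 CPM in control libraries. The groups did not overlap, and control library 2 was the lowest. Per kb of its own exons it had 90.1 ± 10.8 CPM in knockout livers and 48.6 ± 14.4 in control livers, below Ugt1a1 in both groups. Per count of Ugt1a1 in the same library it had 0.279, 0.287, 0.278 and 0.289 counts in knockout libraries, against 0.220, 0.0917, 0.130 and 0.228 in control libraries, so that this ratio was narrow in knockout and wide in control livers. From its CPM the log2 fold change came to 0.89 (SE 0.21, adjusted p = 0.0497, or 0.111 with the replicate number as a block). Leaving out 1 library gave adjusted p-values from 0.0214, without control library 2, to 0.123, without knockout library 3. Without knockout library 1, 2 or 4 it was 0.0971, 0.12 and 0.0739, and without control library 1, 3 or 4 it was 0.0637, 0.0844 and 0.0571, so that control library 2 was the only one whose removal kept the call.

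Ugt1a9, a gene for glucuronidation of phenols, varied more and was added after its values were seen. It had 81.8, 93.7, 82.7 and 49.3 CPM in knockout libraries, against 35.4, 55.3, 67.9 and 26.4 CPM in control libraries. Knockout library 4 lay inside the control range. The log2 fold change of Ugt1a9 was 0.73 (SE 0.32) with adjusted p = 0.23, or 0.0229 with the replicate block. Per kb of its own exons it had 87.5 ± 21.8 CPM in knockout livers and 52.6 ± 21.4 in control livers, which differed from Ugt1a5 by less than 1 SD in each group. Same-numbered libraries of the 2 groups deviated together over all genes, so blocked values stand beside the results they change. Ugt1a10, Ugt1a2 and Ugt1a7c were present at under 2 CPM in every library and did not pass (adjusted p = 0.695, 0.868 and 0.257).

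**Figure D3:**
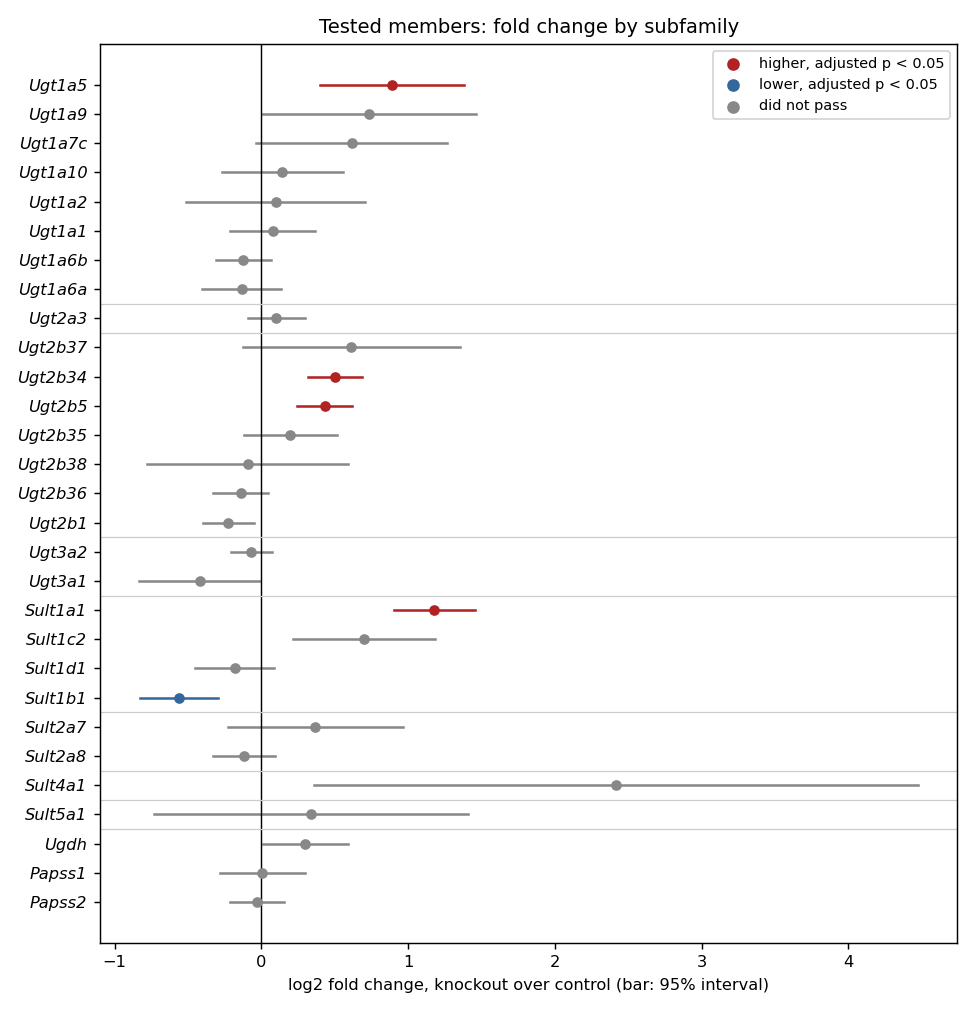
Log2 fold change of knockout over control for the 29 tested genes, grouped by subfamily, with bars of 95% intervals. The genes past the threshold are Ugt1a5 (0.89), Ugt2b34 (0.50), Ugt2b5 (0.43), Sult1a1 (1.18) and, below 0, Sult1b1 (−0.56), and members of 1 subfamily lie on both sides of 0.

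The Ugt2b genes hold most of the Ugt counts. Their sum was 3802, 3978, 3577 and 3715 CPM in knockout libraries, against 3007, 3367, 3500 and 3337 CPM in control libraries. The ratio of the means was 1.14. Scaled by total counts alone it was 1.05, and the groups overlapped, with 3518 to 3794 CPM on that scale in knockout libraries and 3106 to 3702 in control libraries. UGT2B enzymes act on steroids, bile acids and many drugs. Of 7 tested Ugt2b genes, 2 were higher and 0 lower.

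Ugt2b34 (ENSMUSG00000029260.15, mm10 chr5:86889767-86906937, minus strand) had 900.4, 980.4, 892 and 869 CPM in knockout libraries, against 561, 663, 663 and 684 CPM in control libraries. The groups did not overlap. On the log2 scale the difference was 0.50 (SE 0.08, adjusted p = 0.0126), with adjusted p-values up to 0.0462 when 1 library was left out. Nearly all of its 50-base stretches (98.6%) occur in no other gene.

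Its neighbour Ugt2b1 did not share this direction. Ugt2b1 had 689, 645, 611 and 735 CPM in knockout libraries, against 768, 825, 750.2 and 788 CPM in control libraries. The groups did not overlap either, but the log2 fold change of −0.22 (SE 0.08) had adjusted p = 0.131, or 0.0252 under scaling by total counts alone. Counts of Ugt2b34 per count of Ugt2b1 were 1.31, 1.52, 1.46 and 1.18 in knockout libraries, against 0.731, 0.803, 0.884 and 0.868 in control libraries. Ugt2b34 thus exceeded Ugt2b1 in counts in every knockout library and in no control library, and this ratio does not depend on scaling.

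Ugt2b5 (ENSMUSG00000054630.7, mm10 chr5:87124960-87140318, minus strand) had 1240, 1304, 1174 and 1126 CPM in knockout libraries, against 809, 912, 979.5 and 892.5 CPM in control libraries. The groups did not overlap, with 0.43 as its log2 fold change (SE 0.08, adjusted p = 0.0222) and adjusted p-values from 0.0185 to 0.0683 when 1 library was left out. The call was lost without knockout library 1 (0.0683), 2 (0.0567) or 3 (0.0619) and without control library 1 (0.0554) or 2 (0.0506). Its share of all Ugt counts was 24.1 ± 0.649% in knockout livers and 19.9 ± 0.379% in control livers. Ugt2b5, Ugt2b37 and Ugt2b38 are close copies, and 58.3% of the 50-base stretches of Ugt2b5 are its own. Of their summed CPM, 98.3% was Ugt2b5, so a fit of the sum, added once the data had been seen, repeats the Ugt2b5 value (0.43, adjusted p = 0.0227) and does not test an exchange of reads between the copies. Its neighbour Ugt2b36 had 546 ± 49.7 CPM in knockout livers and 601 ± 36.1 CPM in control livers (−0.14, adjusted p = 0.37). The count ratio of Ugt2b5 to Ugt2b36 was 2.22 ± 0.0636 in knockout livers and 1.49 ± 0.0652 in control livers.

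The Ugt2 genes and Sult1b1, Sult1d1 and Sult1e1 lie side by side on chromosome 5, between 86889767 and 87591594 (mm10). Of the 10 tested genes in this stretch, Ugt2b34 and Ugt2b5 were higher, Sult1b1 was lower and the other 7 did not pass. Ugt2b35, on the opposite strand to its neighbours, had 400.0, 419, 361 and 471 CPM in knockout libraries, against 286, 323, 454 and 378 CPM in control libraries, with overlap (0.20, adjusted p = 0.462). Ugt2a3, for which a role in bile acid glucuronidation is known from the human enzyme, had 232 ± 14.9 CPM in knockout livers and 216 ± 22.4 CPM in control livers (adjusted p = 0.533). Ugt2a1 and Ugt2a2, known from olfactory tissue, had 0 counts in all 8 libraries. They share 1771 exon bases, and only 3.0% and 6.4% of their 50-base stretches occur in no other gene. Shared reads may have been credited to neither, so these counts do not show that the genes are silent.

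**Figure D4:**
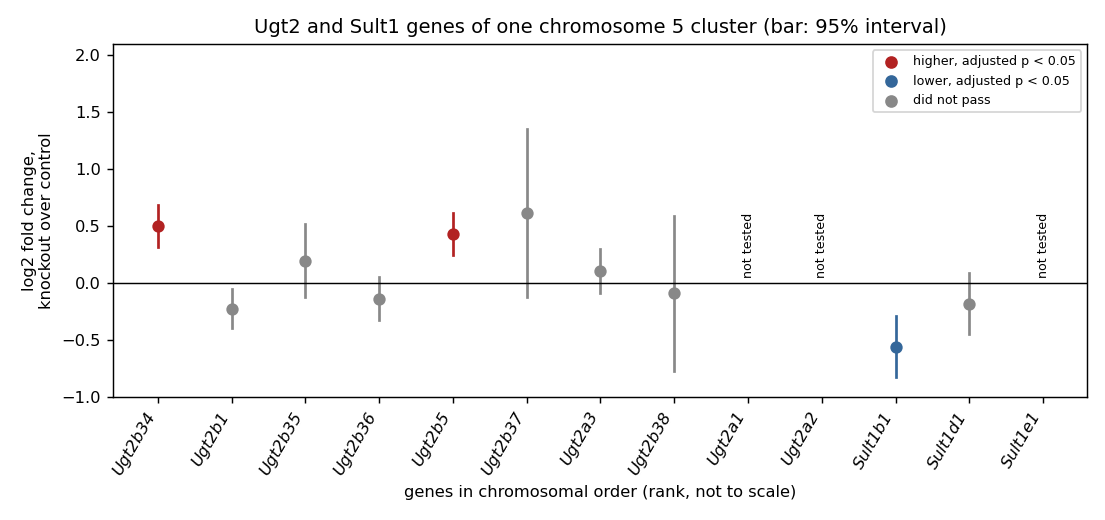
Log2 fold change of knockout over control for the Ugt2 and Sult1 genes of the chromosome 5 cluster in their order along the chromosome (rank, not distance), with bars of 95% intervals. Genes past the threshold in both directions lie in 1 stretch, Ugt2b34 at 0.50 and Ugt2b5 at 0.43 above 0 and Sult1b1 at −0.56 below. Ugt2b1, beside Ugt2b34, lies at −0.22 and did not pass.

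The Ugt3a genes lie apart on chromosome 15. Their human counterparts use sugar donors other than glucuronic acid. Ugt3a1 had 52.3, 72.5, 62.2 and 40.5 CPM in knockout libraries, against 82.0, 75.5, 88.0 and 58.9 CPM in control libraries. The groups overlapped, and the log2 fold change of −0.42 (SE 0.18) had adjusted p = 0.224, or 0.0417 with the replicate block. Ugt3a2 had 366 ± 17.0 CPM in knockout livers and 384 ± 7.99 CPM in control livers, with a narrow interval for its log2 fold change from −0.21 to 0.07 (adjusted p = 0.572).

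The donor genes themselves did not pass the test. Ugdh, which makes UDP-glucuronic acid, had 299, 393, 285 and 293 CPM in knockout libraries, against 226, 236, 261 and 308 CPM in control libraries. Control library 4 lay above 3 of the 4 knockout libraries, and the log2 fold change was 0.30 (95% interval 0.01 to 0.59, adjusted p = 0.219). Papss2, the main PAPS synthase gene of liver, had 196 ± 15.1 CPM in knockout livers and 201 ± 14.9 CPM in control livers (−0.03, 95% interval −0.21 to 0.15, adjusted p = 0.862). Papss1 had 27.7 ± 1.07 CPM in knockout livers and 27.5 ± 5.69 CPM in control livers (adjusted p = 0.984).

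Lists of genes around UDP-glucuronic acid and PAPS supply were counted beside the 3.51% higher and 1.88% lower of all tested genes. They include Ugdh, Papss1 and Papss2, and not every gene on them acts only in that supply. The 2 lists were not tested against each other. Of 12 tested genes for UDP-glucuronic acid supply, 3 rose and 0 fell, with a median log2 fold change of 0.24. Slc35d1, which carries UDP-glucuronic acid into the endoplasmic reticulum, had 232, 247.5, 239.5 and 245 CPM in knockout libraries, against 157, 147, 175 and 188 CPM in control libraries (0.53, SE 0.08, adjusted p = 0.0103). All knockout libraries lay above all control libraries. Ugp2, which makes UDP-glucose, had 427 ± 37.5 CPM in knockout livers and 319 ± 28.3 CPM in control livers (0.42, adjusted p = 0.0299, or 0.069 under total counts alone). Gpi1, which interconverts glucose and fructose phosphates, had 332 ± 39.3 CPM in knockout livers and 212 ± 16.5 CPM in control livers (0.65, adjusted p = 0.00908). The call of Ugp2 was lost in 6 of the 8 fits without 1 library (all but those without knockout library 1 or control library 3, with adjusted p up to 0.0861), while those of Slc35d1 and Gpi1 held in all 8. Of 16 tested genes for sulfate and PAPS supply, 0 rose and 0 fell (median −0.03), while 3 had an unadjusted p under 0.05 in the edgeR fit. DESeq2 and limma each called 1 of them lower.

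**Figure D5:**
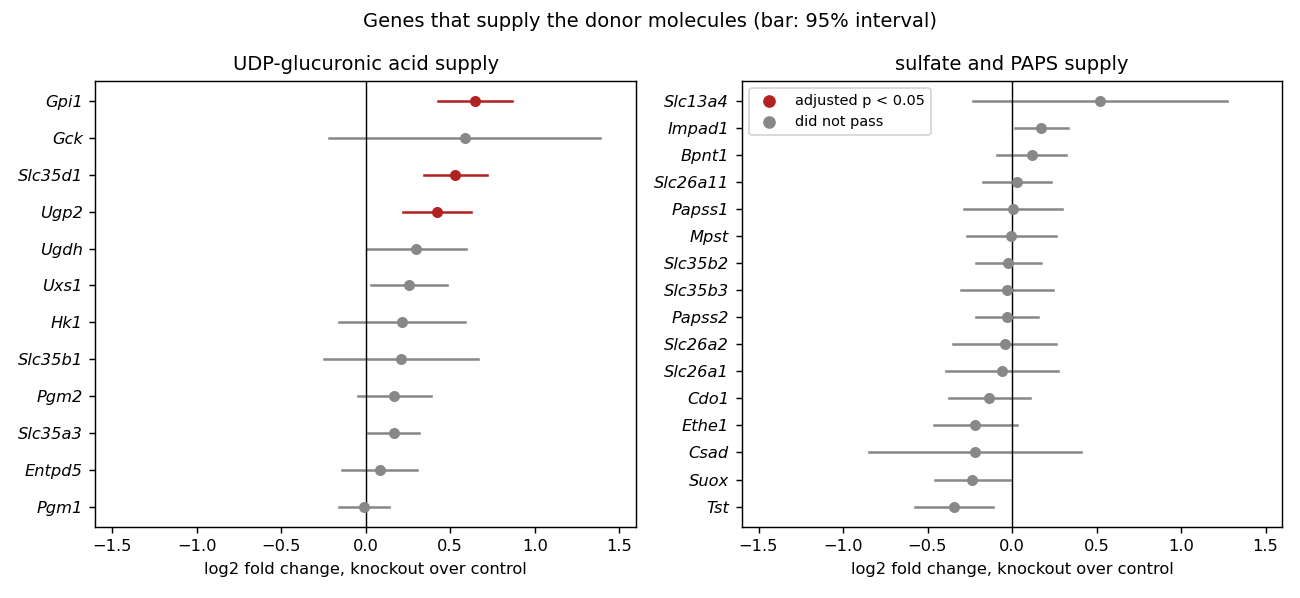
Log2 fold change of knockout over control for the tested genes of UDP-glucuronic acid supply (left) and of sulfate and PAPS supply (right), with bars of 95% intervals. Gpi1 (0.65), Slc35d1 (0.53) and Ugp2 (0.42) passed the threshold on the left, and no gene passed on the right.

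Genes that act after conjugation or control it were counted next, against the 3.51% higher and 1.88% lower of all tested genes. Of 5 tested hydrolysis genes, the lysosomal sulfatase gene Arsb rose, with 63.1 ± 0.433 CPM in knockout livers and 52.1 ± 2.08 CPM in control livers (0.28, adjusted p = 0.0255, or 0.111 under total counts alone, and up to 0.0814 in the 5 fits without knockout library 1, 2 or 3 or control library 1 or 2). Of 13 transporter genes, Slc10a1, which takes up bile acids from blood, rose to 812 ± 60.03 CPM in knockout livers, against 565 ± 68.5 CPM in control livers (0.52, adjusted p = 0.0209, or 0.0694 without knockout library 3). The canalicular exporter gene Abcc2 had 1046 ± 40.4 CPM in knockout livers and 864 ± 98.9 CPM in control livers, with overlap (adjusted p = 0.11). Abcg2, on the same list, had 87.0 ± 8.42 CPM in knockout livers and 104 ± 1.87 CPM in control livers, without overlap (−0.26, adjusted p = 0.088). The median log2 fold change of the 13 transporter genes was −0.07, with 5 above 0. Of 24 tested regulator genes 0 rose and 1 fell. Nr1i3, which encodes CAR, had 70.7, 63.0, 82.1 and 53.0 CPM in knockout libraries, against 96.2, 112, 129 and 84.1 CPM in control libraries (−0.65, adjusted p = 0.0493, or 0.00509 with the replicate block). That call was lost in 7 of 8 fits without 1 library (all but that without control library 4, adjusted p up to 0.122), with limma (adjusted p = 0.0688), and at 0.0511 and 0.0549 with median-of-ratios scaling and without a count filter.

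Known targets of AHR, CAR, PXR and NRF2 were counted beside them. Of 18 tested target genes 2 rose and 1 fell, with a median log2 fold change of 0.23. The NRF2 targets Srxn1 and Txnrd1 rose by 0.52 and 0.32 (adjusted p = 0.0223 and 0.0403). The AHR target Cyp1a2 had 616 ± 71.3 CPM in knockout livers and 846 ± 82.0 CPM in control livers (−0.46, adjusted p = 0.0363). The CAR target Cyp2b10 had 18.2, 19.1, 16.8 and 4.01 CPM in knockout libraries, against 8.27, 5.59, 10.5 and 3.48 CPM in control libraries, with overlap (adjusted p = 0.29). The call of Cyp1a2 held only without knockout library 4 and that of Txnrd1 only without control library 4 (adjusted p up to 0.114 and 0.115 in the other fits without 1 library). That of Srxn1 was lost without knockout library 1 or 3 or control library 1 or 2 (up to 0.0606), and Txnrd1 had adjusted p = 0.0958 under total counts alone.

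Markers of liver cell types were summed beside these results, and their part in them was not tested. Of 7 tested hepatocyte markers 0 passed with edgeR, 4 lay above 0 and the median log2 fold change was 0.03. Their summed level was 84640 to 99238 CPM in knockout livers and 74091 to 78990 CPM in control livers. Most of that sum was Alb, at 71672 ± 4025 CPM in knockout livers and 57566 ± 3580.1 CPM in control livers (adjusted p = 0.0856), and without Alb the sums overlapped, at 16338 to 23295 CPM in knockout livers and 15855 to 21211 CPM in control livers. Ass1, a urea cycle gene on the same list, had at most 7 counts in knockout and 6 in control libraries and was not tested. Cps1, another urea cycle gene of that list, had 4159 ± 459 CPM in knockout livers and 4780 ± 400 CPM in control livers. Whether reads of Ass1 were lost in mapping or counting was not tested. Of 8 cholangiocyte markers 1, the transcription factor gene Sox9, fell, and the summed level was 49.2 to 61.4 CPM in knockout livers and 68.8 to 78.4 CPM in control livers, without overlap. Summed levels overlapped between the groups for stellate, endothelial, Kupffer cell and lymphocyte markers, and none of their tested genes passed with edgeR. Of 8 pericentral hepatocyte markers 1 (Cyp1a2) fell, and of 7 tested periportal markers 1 (Hsd17b13) rose, with summed levels that overlapped in both lists.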

How the data were processed

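The authors sequenced liver RNA in 8 libraries, 4 per group, and deposited 1 table of raw, whole-number counts, with gene symbols as rows, a column for each library and a gene length in bases, per the file headers. The labels' protocols name the NEBNext Ultra II kit for library preparation, and mm10 is the build in the submitters' processing notes. Aligner, counter, annotation and strand setting: not given in the sources used here. Columns were matched to samples by library name.

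Genes were filtered with filterByExpr (14861 kept, 10378 left out), scaled with TMM and tested over the whole table with edgeR 4.0.16 in R 4.3.3 (glmQLFit with robust estimation, glmQLFTest, Benjamini-Hochberg, threshold 0.05). The biological coefficient of variation was 0.204. The SE was taken as |log2 fold change| / √F. Counts were simulated with the same library sizes and with that common variation for every gene (14772 genes run). This fit recovered 74% of genes changed by 1 on the log2 scale and 4% of those changed by 0.5. There were 2 false calls among 80, and smaller changes can be missed. Genes with less or more variation than the common value were not simulated, so these shares need not hold for them. Of values from 1 to 20, 67.4% to 70.8% were even, so a fit on counts divided by 2 was among the alternatives, with scaling by total counts or median of ratios, DESeq2 1.42.0, limma 3.58.1 with quality weights, other filters, the replicate block and fits without each library.

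The groups share replicate numbers 1 to 4, with no stated litter or batch. Deviations from the group means correlated, over genes, between libraries of number 1 (0.165), 2 (0.387), 3 (0.306) and 4 (0.402), so by that measure the numbers pair the libraries. No 2 libraries of a group agreed within counting noise (chi-square per gene 83.2 to 370).

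Named genes are Zfp36l1, every gene of the 44 past the threshold, the 3 genes of each direction nearest to the threshold without passing, the 8 most abundant, the donor genes, and up to 4 called genes of each pathway list. Other genes are named as examples chosen after their values were seen, and so were the count ratios. The 44 genes and the lists were chosen with earlier results of these data known. Positions and exon overlaps are from GENCODE M21 (GRCm38, the assembly of mm10), which matched all 44 symbols, and promoter windows from RefSeq on GRCm38.p6.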

Additional observations from a re-analysis of the deposited data

Results flagged for a closer look

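Across 36 sets of 4 libraries checked (named genes in each group), 2 held a library far from the other 3, and chance alone gives about 1 in 20 such sets. Ugdh in knockout livers was one: knockout library 2 was the highest at 393 CPM, and its gap to the next library was 0.849 of the range on the log2 scale. Ugt2b34 in control livers was the other: control library 1 was the lowest at 561 CPM, with a gap of 0.838 of the range. Without control library 1 the log2 fold change of Ugt2b34 was 0.44 (edgeR adjusted p = 0.0281), and without knockout library 2 that of Ugdh was 0.18 (edgeR adjusted p = 0.395).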

How the results depend on the processing

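In 8 alternatives other than leaving out a library, the number of higher genes among the 44 was 3 to 5 (4 as reported), and the number of lower genes was 1 or 2 (1 as reported, 2 under total counts alone and 2 with the replicate block). The fits without 1 library gave 2 to 4 higher and 0 to 1 lower genes. None of the 5 changed genes reversed direction in any of these fits. Under total counts alone, which shifted the median over all genes by −0.113 (log2), Ugt2b1 was called lower as well. The replicate block ended the call of Ugt1a5 and added Sult4a1, Ugt1a9 and Ugt3a1, without a count filter Ugt1a5 was lost, limma added Ugt1a9, and DESeq2 and the fit without control library 3 added Sult1c2. The block changed no other call among the 44 genes.

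Distinct genes called over the pathway lists were 10 higher and 5 lower, and 5 to 13 and 1 to 5 without 1 library. These lists take in the genes of female and male liver given below. Cyp17a1, Cyp2a4 and Cspg5 are therefore among the higher genes, and Mup20 and Cyp2d9 among the lower. Lower genes of the lists numbered 14 under total counts alone, 12 with DESeq2, 9 with limma and 10 with the replicate block. For all genes, 521 (3.51%) were higher and 280 (1.88%) lower. DESeq2 gave 983 and 681, limma 830 and 604, and total counts alone gave 392 and 1338. Without 1 library these counts were 169 to 583 and 42 to 384. Zfp36l1 kept a log2 fold change of −2.11 to −1.86 in every fit. Log2 ratios of summed levels under total counts alone were 0.0754 for Ugt2b (0.19 as reported), −0.23 for Ugt3a (−0.12), 0.0411 for all Ugt genes (0.16) and 0.0367 for all 44 genes (0.15). Papss1, near 0, turned to −0.10 under total counts alone and lay between −0.0922 and 0.144 without 1 library, and Papss2 lay between −0.0762 and 0.0187. The causes were not tested. Low counts limit mainly Sult4a1, Ugt1a2 (at most 55 counts in a library), Ugt1a7c (at most 44) and the 15 genes that were not tested. Members of the Ugt1a locus, close Ugt2b copies and some genes not tested are limited by shared sequence. Only 3.0% of the 50-base stretches of Ugt2a1, 6.4% of Ugt2a2 and 37.9% of Sult2a2 are their own. For these genes depth, level and loss of shared reads cannot be told apart.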

Other observations

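Other conjugation genes and genes known to differ between male and female mouse liver were read from the same fit. Of 23 tested genes of acetyl, methyl, glycine, glutathione and related conjugation, 0 rose and 1 fell, with a median log2 fold change of 0.04. The gene that fell was Nat8, an N-acetyltransferase of mercapturate formation, with 3.53, 4.90, 3.46 and 5.27 CPM in knockout libraries, against 9.90, 9.30, 6.49 and 9.74 CPM in control libraries (−1.05, edgeR adjusted p = 0.016, up to 0.0542 when 1 library was left out).

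Of 13 tested genes expressed mainly in female liver, 2 rose and 0 fell, with a median log2 fold change of 0.34. Of 20 tested genes expressed mainly in male liver, 1 rose and 2 fell, with a median of −0.45. Of all tested genes 3.51% were higher and 1.88% lower, and the 2 lists were not tested against each other. Cyp17a1, a steroid hydroxylase gene, had 40.7 ± 15.5 CPM in knockout livers and 5.71 ± 1.45 CPM in control livers (2.83, edgeR adjusted p = 0.00418). Cyp2a4, a steroid hydroxylase gene of female liver, had 8.12 ± 3.05 CPM in knockout livers and 2.20 ± 0.513 CPM in control livers (1.88, edgeR adjusted p = 0.014). Mup20, a major urinary protein gene of male liver, had 2019 ± 201 CPM in knockout livers and 4061 ± 922 CPM in control livers (−1.01, edgeR adjusted p = 0.01), and Cyp2d9 fell by 0.39 on the log2 scale (edgeR adjusted p = 0.0448, lost in 7 of 8 fits without 1 library). Cspg5 rose by 1.04 (edgeR adjusted p = 0.0249, or 0.068 with the replicate block, lost in 5 of 8 fits without 1 library). The summed level of the male list was 8412 to 14162 CPM in knockout livers and 16795 to 23631 CPM in control livers. Mup20 and Serpina1e carried this separation. Serpina1e, a serpin gene, had 1894 ± 1614.5 CPM in knockout livers and 7694 ± 1355 CPM in control livers and did not pass the test (−2.02, edgeR adjusted p = 0.137). Without these 2 genes, left out after their values were seen, the sums overlapped, at 6010 to 8377 CPM in knockout livers and 5857 to 9580 CPM in control livers. The summed level of the female list was 155 to 446 CPM in knockout livers and 162 to 499 CPM in control livers. Its most abundant gene by mean was Cyp4a10, at 209.5 ± 114 CPM in knockout livers and 276 ± 133 CPM in control livers (edgeR adjusted p = 0.737). A sum of the female list without Cyp4a10 was not computed, so the overlap need not hold for its other genes. The Sult genes known from female liver had the few counts given above in both groups.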
